A study of Drosophila melanogaster with 2 samples.

Results

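The bithorax complex on chromosome arm 3R holds the Hox genes Ubx, abd-A and Abd-B, the noncoding transcripts lncRNA:bxd and lncRNA:iab8, and MSAmiP, which encodes a micropeptide. The rule that defines these 6 of the 17683 annotated genes on the main chromosome arms uses names and positions and no measured value. Binding of Abd-B fused to GFP was mapped by ChIP-seq, the sequencing of DNA precipitated with a chromatin protein, and every peak summit was taken from the 3' end of Ubx to 10 kb beyond the upstream end of Abd-B. This interval of 325.6 kb (3R:16656623-16982236, build dm6) held 43 of the 5033 summits kept by the authors for agreeing between replicates under an irreproducible discovery rate (IDR) criterion, called IDR summits here.

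The samples were whole Drosophila melanogaster embryos 4 to 20 h old of the strain Abd-B-GFP, a stable transgenic line in which GFP is joined to the C-terminus of Abd-B. The chromatin, sonicated to 200 to 800 bp, was precipitated with an antibody against GFP. There was 1 group of 2 biological replicates, both with the transgene, and no untagged or control sample is used here, so no comparison between groups was possible. The labels do not say how much Abd-B sequence the insertion carries or where it lies, so reads from the transgene and from the resident Abd-B locus cannot be told apart. In whole embryos, binding in few nuclei and weak binding in many cannot be told apart either. The lists hold no read counts, so the depth is not known. Each peak has a signal value on a scale of the authors that is not stated, so it is used to rank peaks within a list, where rank 1 is the strongest.

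The Hox genes of the complex lie in the order of the body segments that they specify: Ubx acts in the posterior thorax and the first abdominal segment, abd-A in the middle of the abdomen and Abd-B in the posterior abdomen and the genitalia. Long cis-regulatory stretches between and within the genes set each gene's segmental pattern. The abx/bx and bxd/pbx regions act on Ubx and the iab regions on abd-A and Abd-B. Boundary elements such as Fub, Mcp and the Fab elements keep these regions apart, and Polycomb response elements (PREs) keep a gene silent where it was off early in the embryo. The annotation used here gives no dm6 coordinates for boundaries or PREs, so no summit was assigned to one, and stretches were divided at gene ends and transcription start sites (TSSs).

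The sequences below are those around the strongest summit of each stretch of the complex and at Abd-B promoters, since the counts and the motifs turn on them. Each was read from RefSeq dm6 on the plus strand, 100 bp to either side of the summit, with 16960329 cut at its TSS. The letters of 6 motifs, on either strand, are in capitals. They are TTTATGG (1 form of the Abd-B motif), TTTATTG (the other form), TTTATG (Caudal), TAATTA (the core of Hox sites), GAGAG (GAGA factor) and GCCAT (Pho).
Summit 16703080, an intron of Ubx (3R:16702980-16703180, plus strand): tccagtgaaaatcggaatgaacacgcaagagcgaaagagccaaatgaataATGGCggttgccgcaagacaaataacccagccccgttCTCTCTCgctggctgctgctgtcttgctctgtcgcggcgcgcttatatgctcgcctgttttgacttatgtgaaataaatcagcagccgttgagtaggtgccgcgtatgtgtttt
Summit 16764229, an intron of lncRNA:bxd (3R:16764129-16764329, plus strand): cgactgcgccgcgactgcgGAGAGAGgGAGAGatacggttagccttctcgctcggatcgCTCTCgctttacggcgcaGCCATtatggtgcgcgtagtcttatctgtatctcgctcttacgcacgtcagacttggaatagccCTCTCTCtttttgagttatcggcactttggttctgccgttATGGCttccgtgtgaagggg
Summit 16821688, an intron of abd-A (3R:16821588-16821788, plus strand): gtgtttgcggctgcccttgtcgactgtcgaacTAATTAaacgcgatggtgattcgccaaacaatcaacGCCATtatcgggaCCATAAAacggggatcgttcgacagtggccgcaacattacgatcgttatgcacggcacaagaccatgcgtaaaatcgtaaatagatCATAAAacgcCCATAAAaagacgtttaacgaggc
Summit 16871506, an intron of lncRNA:iab8 and MSAmiP (3R:16871406-16871606, plus strand): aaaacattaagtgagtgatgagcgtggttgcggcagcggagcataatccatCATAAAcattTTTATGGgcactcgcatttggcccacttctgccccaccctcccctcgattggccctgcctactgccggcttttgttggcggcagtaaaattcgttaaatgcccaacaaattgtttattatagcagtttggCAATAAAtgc
Summit 16944504, upstream of the Abd-B TSS of the RD, RF, RG and RI transcripts (3R:16944404-16944604, plus strand): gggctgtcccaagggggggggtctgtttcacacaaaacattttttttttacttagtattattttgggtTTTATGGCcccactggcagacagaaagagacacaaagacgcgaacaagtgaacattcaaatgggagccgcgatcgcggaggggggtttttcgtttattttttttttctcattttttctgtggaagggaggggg
Summit 16958176, an intron of Abd-B (3R:16958076-16958276, plus strand): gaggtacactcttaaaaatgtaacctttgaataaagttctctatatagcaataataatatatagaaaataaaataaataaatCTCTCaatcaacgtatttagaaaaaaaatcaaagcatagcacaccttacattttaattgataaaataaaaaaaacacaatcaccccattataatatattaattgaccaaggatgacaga
Summit 16960329, upstream of the Abd-B RA transcript, shown up to its TSS (3R:16960282-16960429, plus strand): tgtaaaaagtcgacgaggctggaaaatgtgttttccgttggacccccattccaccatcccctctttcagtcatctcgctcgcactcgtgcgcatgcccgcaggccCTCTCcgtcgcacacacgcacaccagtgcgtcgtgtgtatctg
Summit 16978101, between Actn3 and AhcyL2 (3R:16978001-16978201, plus strand): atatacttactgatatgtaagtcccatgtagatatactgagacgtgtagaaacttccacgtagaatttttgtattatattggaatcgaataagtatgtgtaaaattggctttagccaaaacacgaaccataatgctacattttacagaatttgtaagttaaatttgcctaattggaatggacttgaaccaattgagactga
Overlapping matches were counted separately here and below, so GAGAGAG counts as 2 GAGAG. The summit of lncRNA:bxd has 6 GAGAG and 2 GCCAT, while the abd-A summit has 2 copies of TTTATGG, 1 more TTTATG and 1 TAATTA. The strongest summit of the Abd-B gene, 16958176, has a single GAGAG and no Abd-B motif, and its window holds 23.9% G and C, the lowest share among the 43. The summit beyond Abd-B, between Actn3 and AhcyL2, holds none of the 6 motifs. The full window of 16960329, 100 bp to either side, holds 1 TTTATGG and 1 GCCAT that the printed part lacks.

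IDR summits were densest at Abd-B, followed by the stretches between the Hox genes, and fewest per length in the bodies of Ubx and abd-A. The interval held 13.2 IDR summits per 100 kb against 3.76 on all main arms and 3.83 on 3R. In the pooled list, which holds many weak peaks, these values were 60.5, 22.4 and 24.1. The ratio to the main arms was thus 3.51 in the IDR list and 2.70 in the pooled list. By stretch, Ubx held 2 IDR summits in 77.8 kb, the 72.8 kb between Ubx and abd-A held 10, and abd-A held 1 in 22.8 kb. The 97.2 kb from abd-A to Abd-B held 14, the 45.0 kb of Abd-B held 15, and the 10 kb beyond held 1. Abd-B thus had 33.3 summits per 100 kb, more than the 13.7 and 14.4 of the stretches between the Hox genes. The value of abd-A was 4.38, near the 3.76 of the main arms, and that of Ubx was 2.57, below it. Among the 5033 strongest peaks of each replicate list, replicate 1 had 2, 9, 1, 14, 18 and 2 summits in these stretches and replicate 2 had 2, 10, 3, 14, 12 and 1. The replicates differed most in Abd-B, with 18 and 12, and by at most 2 summits in each other stretch.

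**Figure D1:**
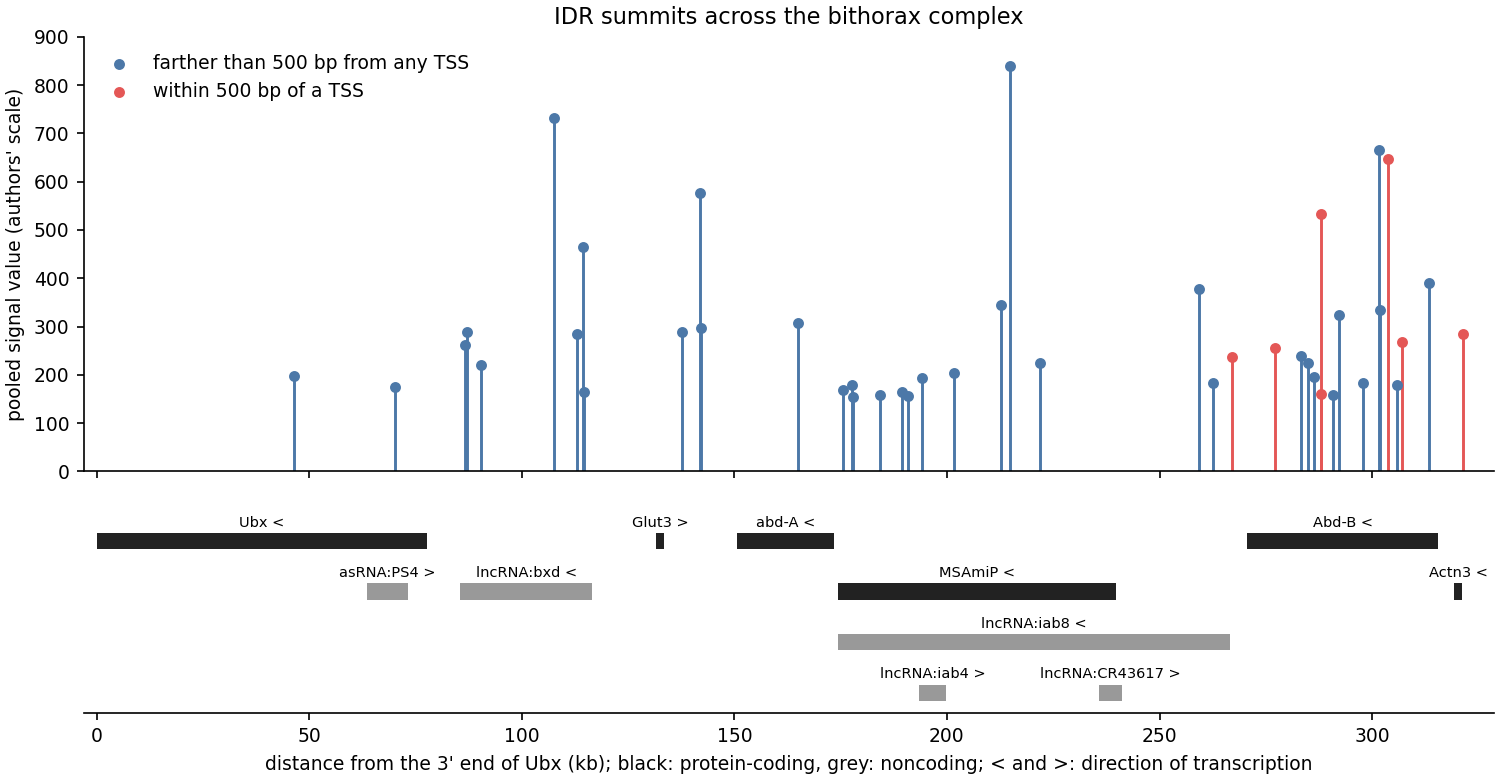
Pooled signal value (authors' scale) of the 43 IDR summits against the distance from the 3' end of Ubx in kb, with genes drawn below and the direction of transcription marked. The tallest summit, at 839, lies inside lncRNA:iab8 and MSAmiP, while the 2 summits within Ubx are at 198 and 174.

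**Figure D2:**
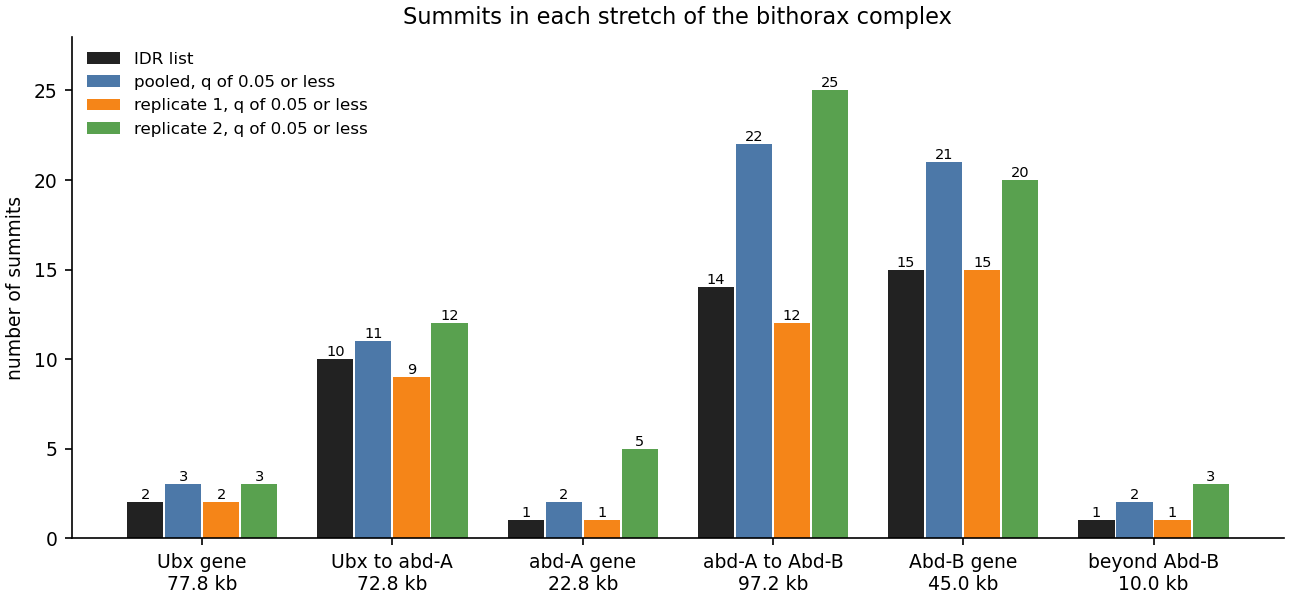
Number of summits in each stretch in the IDR list and, at the authors' q-value of 0.05 or less, in the pooled list and each replicate list. In all 4 lists the stretch from abd-A to Abd-B and the Abd-B gene hold the most, and replicate 2 has 25 and 20 there against 12 and 15 in replicate 1. Over the main arms replicate 2 has 8557 peaks at this q-value and replicate 1 has 4333.

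The 43 summits were of moderate strength. Their signal values ran from 154 to 839 with a median of 239, where all 5033 IDR summits ran from 153 to 5202 with a median of 258. With the IDR list divided by strength into 4 equal parts, 7, 13, 10 and 13 of them fell from the strongest part to the weakest. The complex therefore stood out by the number of summits, and 16.3% of them were in the strongest part against 25.0% of all. Ubx had the weakest median signal, 186, the stretch from abd-A to Abd-B had 188, Abd-B had 256 and the stretch from Ubx to abd-A had 288.

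Summits of the complex lay mainly in introns. Introns held 29 of 43 (67.4%, exact binomial 95% interval 51.5 to 80.9%) against 34.4% of all IDR summits, and 7 lay within 500 bp of a TSS (16.3%, 6.81 to 30.7%) against 48.5%. Within 1 kb of a TSS were 9 (20.9%) against 58.5%. Most of the intronic summits were inside introns of lncRNA:bxd, lncRNA:iab8 and Abd-B. Ubx, lncRNA:bxd, abd-A, lncRNA:iab8 and Abd-B have annotated spans of 77.8, 31.1, 22.8, 92.1 and 45.0 kb in the interval of 325.6 kb. The share of the interval's sequence in introns or near a TSS was not counted. No preference of the summits for introns or against promoters can thus be read from these shares. Intergenic DNA held 3, other exons 3, a 5' UTR 1 and coding sequence 0 (exact 95% interval 0 to 8.22%). The windows of 100 bp to either side of the summits held 43.4% ± 8.40 G and C (SD, n = 43 summits), near the 41.6% of the interval, whereas all IDR summits held 34.9% ± 7.25. Intervals cover the counting of summits only, and summits that share a library are not independent samples.

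Ubx, which gives the haltere and the hind leg their identity, is transcribed from 1 annotated TSS across 77.8 kb and held 2 IDR summits, both far from that TSS. The summit at 16703080, in a long intron, had a pooled signal of 198 (rank 3606), with 83.9 in replicate 1 and 125 in replicate 2. The summit at 16726725, in an exon of the antisense transcript asRNA:PS4 inside Ubx, had 174 pooled, 76.0 in replicate 1 and 102 in replicate 2. They were 23.6 kb apart. Both were rich in GAGAG, the core bound by GAGA factor, a protein of PREs and of open promoters. Within 250 bp of the summit there were 9 GAGAG and 3 GCCAT at the former and 11 GAGAG and no GCCAT at the latter. These are counts of matches, which can overlap in a run, and not of separate sites. At the Ubx TSS (16734426) the nearest IDR summit was 7701 bp away. The pooled list had a peak 117 bp downstream of it at rank 15975, with a signal of 65.3 and a −log10 q of 0.19, which is not enriched at a q-value of 0.05.

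Between Ubx and abd-A the summits gathered on lncRNA:bxd, whose transcripts run through the bithoraxoid region that regulates Ubx. lncRNA:bxd held 7 of the 10 IDR summits in 31.1 kb, or 22.5 per 100 kb, and the 7.7 kb between Ubx and bxd and the 15.1 kb between bxd and Glut3 held none. The leading summit, 16764229, had a signal of 731 pooled (rank 414), 275 in replicate 1 (rank 340) and 460 in replicate 2 (rank 458). The sequence printed above held 6 GAGAG and 2 GCCAT, and the wider window of 250 bp to either side held 9 and 6. GCCAT is the core bound by Pho, the DNA-binding protein of the Polycomb group.

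A group of 3 summits lay near the upstream end of lncRNA:bxd, led by 16770986 with 464 pooled, 203 in replicate 1 and 248 in replicate 2. The other two were at 16769591 (285 pooled) and 16771189 (165). Near the downstream end the pair 16743300 and 16743698 had 262 and 288, and 16747049 had 220. The last of these was 663 bp upstream of the TSS of 1 bxd transcript at 16746386, and the most upstream bxd TSS (16773189) was 2000 bp from an IDR summit. The 6133 bp copy of the diver transposable element inside lncRNA:bxd held no IDR or pooled summit.

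Between Glut3, a predicted sugar transporter gene inside the complex, and abd-A lay the other 3 summits, all intergenic. The strongest, 16798652, had 577 pooled (rank 654), 233 in replicate 1 and 335 in replicate 2, and was paired with 16798866, 214 bp away, at 297. The last, 16794433, was stronger in replicate 2 (216, rank 1783) than in replicate 1 (75.1, rank 3461) by rank.

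abd-A, which patterns the middle abdominal segments, held a single IDR summit and none at its promoters. This summit, 16821688, lay in an intron 6417 bp downstream of the nearest abd-A TSS, with 308 pooled (rank 1957), 147 in replicate 1 (rank 1174) and 168 in replicate 2 (rank 2612). It held more copies of TTTATGG, 2, than the leading summits of Ubx, lncRNA:bxd, lncRNA:iab8 and Abd-B printed above. The summits 16858361 in lncRNA:iab8 and MSAmiP and 16939850 in Abd-B held 2 copies as well. Of the abd-A TSSs (16828105, 16829752 and 16830049), the last had a pooled peak 56 bp downstream of it, at rank 9804 with a −log10 q of 0.56, which is not enriched at a q-value of 0.05. Replicate 2 alone ranked a summit at 16829223 among its 5033 strongest, at rank 4875 with a −log10 q of 3.29. This summit lay 1118 bp upstream of the TSS at 16828105. It was downstream of the TSSs at 16829752 and 16830049 and within 1 kb of both. The pooled list had a peak there at rank 8853 with a −log10 q of 0.71.

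The stretch from abd-A to Abd-B is spanned almost whole by lncRNA:iab8, whose transcript runs from near Abd-B towards abd-A, carries the mir-iab-8 hairpin and is known to repress abd-A in the nervous system. Its annotated span of 92.1 kb held 13 IDR summits (14.1 per 100 kb). MSAmiP, a micropeptide gene whose 65.2 kb span lies inside that of lncRNA:iab8 but for 1 base, shared 11 of them (16.9 per 100 kb), so no summit could be given to one of the pair rather than the other. The 2 that only lncRNA:iab8 spans are 16915799, with 378 pooled, 148 in replicate 1 and 221 in replicate 2, and 16919276, with 183, 54.7 and 131.

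The strongest summit of the whole complex was 16871506, inside both transcripts and 15164 bp from the nearest annotated TSS. Its signal was 839 pooled (rank 301), 358 in replicate 1 (rank 175) and 486 in replicate 2 (rank 409). Its window held both forms of the Abd-B motif, with no GAGAG or GCCAT. The neighbouring summit towards abd-A, 16869447, had 344, 117 and 232.

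By contrast the 20.0 kb next to abd-A held 6 summits, all weak, with ranks from 4075 to 4967 and signals from 154 to 180. Between 16878507 and 16915799 the IDR list had no summit for 37.3 kb, the longest run between neighbouring summits. The first 46.5 kb of the interval, inside Ubx, also held none. The run of 37.3 kb holds the TSSs of MSAmiP and lncRNA:CR43617 and several of lncRNA:iab8, and the pooled list had 23 peaks in it, 3 of them at a q-value of 0.05 or less. The hairpin shared by mir-iab-4 and mir-iab-8, which lie on opposite strands at 16856275 to 16856342, was 2019 bp from the nearest IDR summit, 16858361 (205 pooled, 92.1 in replicate 1, 106 in replicate 2).

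At the TSSs of the noncoding members a summit was found near lncRNA:bxd and lncRNA:iab8. The most upstream lncRNA:iab8 TSSs (16923231 and 16923127) had the summit 16923660 at 429 and 533 bp, with 238 pooled, 134 in replicate 1 and 110 in replicate 2, and the other 6 had none within 1 kb. The single MSAmiP TSS (16896293) was 17786 bp from the nearest IDR summit. Of the 6 members, Abd-B, lncRNA:bxd and lncRNA:iab8 had an IDR summit near a TSS (1 kb or less) and Ubx, abd-A and MSAmiP had none. Over the main arms this held for 25.0% of the 13945 protein-coding genes and 12.6% of the 1944 long noncoding RNA genes, so 3 of 6 members is too few to set against these shares.

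The 4 short motif runs with the CTCF core AGGNGGC were found within 100 bp of IDR summits of the complex, and they are shown because CTCF is a protein of bithorax boundary elements. Each sequence is 41 bp on the plus strand of dm6, with the core in capitals, which reads as its reverse complement where the core is on the minus strand.
Near summit 16798652, between Glut3 and abd-A (3R:16798722-16798762, plus strand): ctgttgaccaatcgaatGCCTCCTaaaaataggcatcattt
Near summit 16869447, in lncRNA:iab8 and MSAmiP (3R:16869332-16869372, plus strand): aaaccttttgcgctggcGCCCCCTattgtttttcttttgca
Near summit 16919276, in lncRNA:iab8 (3R:16919210-16919250, plus strand): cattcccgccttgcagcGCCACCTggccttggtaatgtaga
Near summit 16943041, in Abd-B (3R:16943050-16943090, plus strand): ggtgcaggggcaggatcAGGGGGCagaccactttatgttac
The cores lay 90, 95, 46 and 29 bp from these summits. The share, 4 of 43 (9.30%), is set beside 6.79% of 1619 windows of the same length as the motif windows across the interval and 5.23% of all IDR summits. A match of these letters shows neither a bound site nor a boundary.

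Abd-B, which encodes the protein precipitated here, carried the most IDR summits of the members, 15, followed by lncRNA:iab8 with 13. In the pooled list, which holds many weak peaks, the longer lncRNA:iab8 had 67 and Abd-B 55. It is transcribed from 6 annotated TSSs, and 4 of them had an IDR summit within 1 kb, where 24.0% of the 19252 distinct TSSs of protein-coding genes had one. Summits lay 48 bp upstream of the RA start at 16960281 and 6 bp downstream of the RC start at 16963641. They lay 231 bp upstream of the start shared by RD, RF, RG and RI at 16944273 and 359 bp downstream of the start of RB and RH at 16934242.

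The RA promoter summit, 16960329, had 647 pooled (rank 520), 275 in replicate 1 (rank 339) and 362 in replicate 2 (rank 729). The summit at the start of RD, RF, RG and RI, 16944504, had 533 pooled (rank 764), 237 and 292. The other promoter summits were weaker by rank, among them 16944708, at 435 bp upstream of that same start, with 160 pooled (rank 4751). At RC, 16963635 had 267 pooled (rank 2399), 152 in replicate 1 (rank 1073) and 103 in replicate 2 (rank 4910), a difference in rank of 4.58 times. At RB and RH, 16933883 had 256 pooled (rank 2558), 90.8 and 154.

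The 2 most upstream Abd-B TSSs had no IDR summit within 1 kb. At RJ (16968574) the nearest was 16969976, 1402 bp upstream, with 391 pooled (rank 1323), 164 in replicate 1 and 218 in replicate 2. The pooled list had a peak 57 bp from the RJ start at rank 26205 and one 138 bp from the RE start (16972236) at rank 17014, neither at a q-value of 0.05 or less. The promoters with a summit were thus the 4 nearest to the 3' end of the gene.

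**Figure D3:**
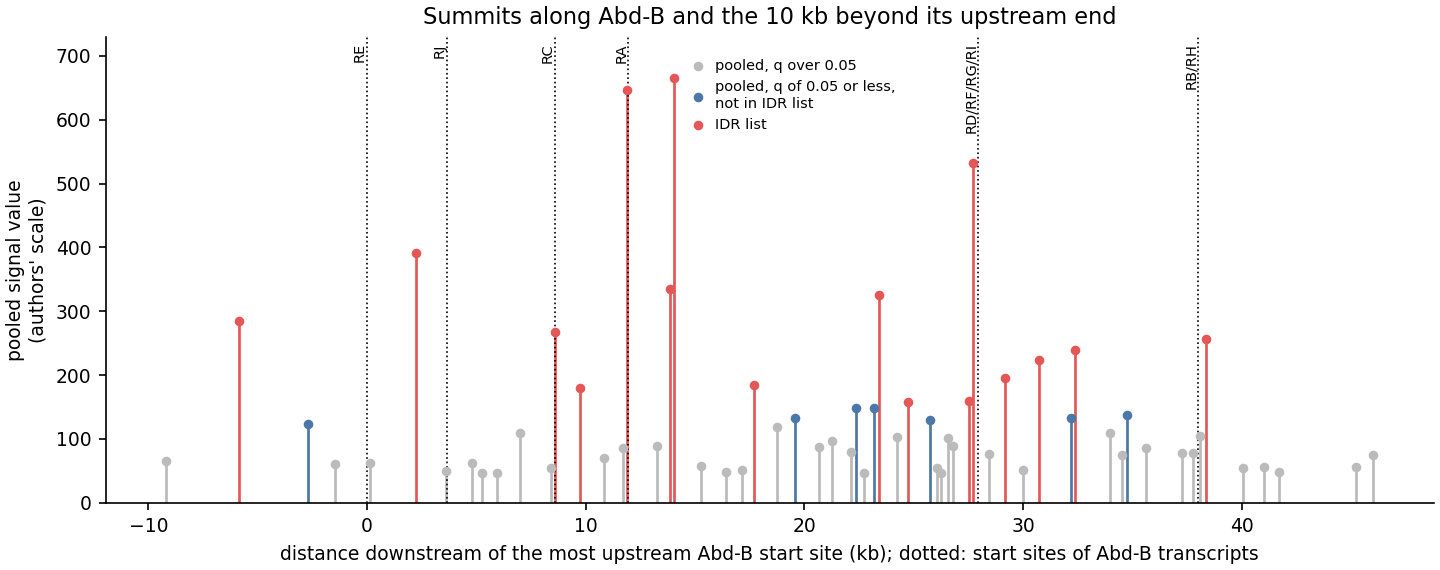
Pooled signal value (authors' scale) of each pooled summit against the distance downstream of the most upstream Abd-B start in kb, coloured by list, with the starts as dotted lines. Summits at RA (647) and at RD, RF, RG and RI (533) stand beside their starts, and the tallest, at 666, stands 2105 bp downstream of RA.

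Away from the promoters, the strongest summit of Abd-B, 16958176, had 666 pooled (rank 496), 189 in replicate 1 (rank 724) and 488 in replicate 2 (rank 405), and lay 2105 bp downstream of the RA start. The 16008 bp between the starts of RA and of RD, RF, RG and RI held 7 of the 15 summits and 25 of the 55 pooled peaks of the gene. The 4.9 kb between RC and RJ held none of the 15. Among 245 other protein-coding genes with a length within 20% of that of Abd-B, none had as many IDR summits: the median was 1, the highest was 13, and 56.5% of the 246 genes, Abd-B included, had at least 1. Those nearest in count were Raf (13), ftz-f1 (9), and NK7.1, tna and RhoGAP19D (7 each). The likeness is in counts of summits alone. The 15 of Abd-B include 16944504 and 16944708, 204 bp apart, and 16958176 and 16958376, 200 bp apart. Such close pairs were not counted once in this comparison, for Abd-B or for the other genes. Among the strongest peaks of each replicate list Abd-B had 18 in replicate 1 and 12 in replicate 2. Whether its lead over the 13 of Raf holds with pairs counted once, or in either replicate, was not tested.

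The Hox genes of the Antennapedia complex, also on 3R, held fewer. Antp had 9 IDR summits in 103.0 kb (8.74 per 100 kb), Scr 1 and pb 1, and lab and Dfd had 0. Abd-B, with 33.3 per 100 kb, was the densest of the 8 Hox genes, ahead of Antp, abd-A (4.38) and Scr (3.72).

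Most summits of the complex had a partner in both replicates, with ranks that differed for some. Of the 43 summits, 41 had a summit within 100 bp in both full replicate lists (95.3%, exact 95% interval 84.2 to 99.4%), against 92.1% of all IDR summits. The IDR list was made from these replicates, so this share was set in part by that selection. In 26 of the 41 both replicate summits were within 20 bp of the pooled one. The larger rank was a median 1.51 times the smaller, and 12 of the 41 differed by more than 2 times. Replicate 1 ranked 28 of them better and replicate 2 ranked 13 better. Across the 41 summits the ranks had a Spearman rho of 0.637, a description of summits that share the same 2 libraries.

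The largest disagreements lay in Abd-B. The summit 16958376, 200 bp from the strongest summit of the gene, was at rank 25444 in replicate 1 (signal 26.3) and 2274 in replicate 2 (184). The summit 16941502, 2771 bp downstream of the start of RD, RF, RG and RI, was at rank 11013 in replicate 1 and 1942 in replicate 2. The summit 16944708, 435 bp upstream of that same start, was at rank 1673 in replicate 1 and had no partner in replicate 2, while 16834575 in lncRNA:iab8 and MSAmiP had none in replicate 1.

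**Figure D4:**
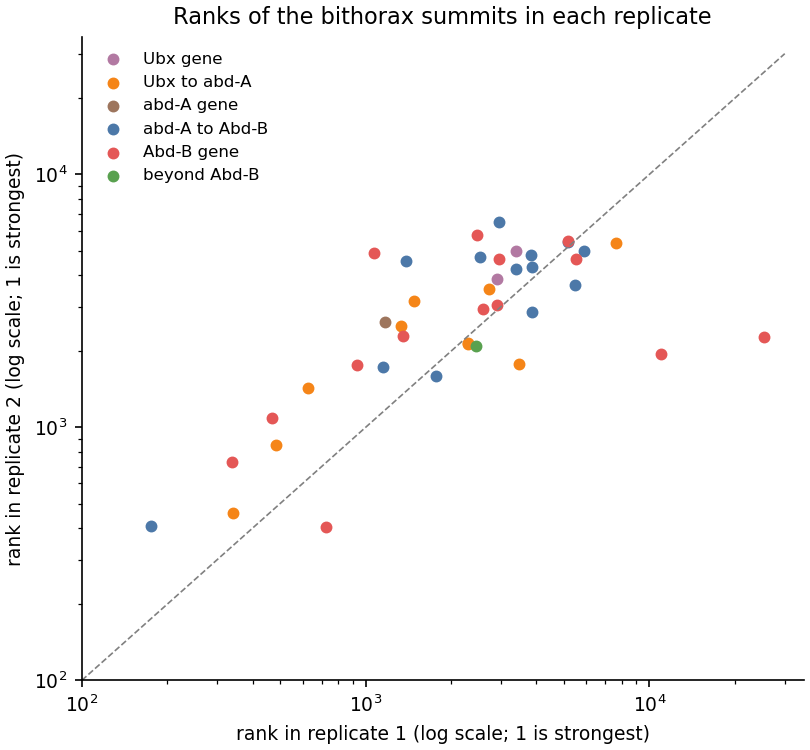
Rank of each bithorax summit in replicate 1 against its rank in replicate 2, coloured by stretch. Both axes are log, 1 is the strongest, and the dashed line marks equal ranks. Shown are the 41 summits with a partner in both full replicate lists. The point farthest to the right is the Abd-B summit at rank 25444 in replicate 1 and 2274 in replicate 2.

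Some summits of the complex came in close pairs. Of 42 neighbouring pairs, 6 were at most 450 bp apart (14.3%), against 152 of 5027 over the IDR list (3.02%), a distance chosen after seeing the data. They were 200 to 398 bp apart, with 3 pairs between Ubx and abd-A, 1 in lncRNA:iab8 and MSAmiP, and 2 in Abd-B. The median distance between neighbours was 3566 bp. Neighbours lie closer where summits are denser. The interval had 3.51 times the IDR summits per length of the main arms, and shares at equal density were not compared.

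Below the IDR threshold the complex held more peaks. The pooled list had 197 summits in the interval, of which 61 (31.0%) had a q-value of 0.05 or less, where 22.3% of all pooled peaks did. In replicate 1 it was 40 of 181 (22.1%) against 14.4%, and in replicate 2 it was 68 of 188 (36.2%) against 28.5%. Of the 61, 18 were not IDR summits, and 12 of these had a partner in both replicates. They lay mostly in lncRNA:iab8 and MSAmiP, with 8 between abd-A and Abd-B, and in Abd-B, with 6, while Ubx, abd-A, lncRNA:bxd and the 10 kb beyond Abd-B each had 1. Among the 5033 strongest peaks of a replicate, those with no IDR summit within 100 bp numbered 12 in replicate 1, of which 7 were in Abd-B, and 6 in replicate 2, with none in Abd-B. The abd-A peaks 16811871 and 16829223 were in that replicate 2 set.

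Motifs within 100 bp of the summit were counted on both strands for 12 sequences. The Abd-B motif in its G form, TTTATGG, was in 10 of 43 bithorax summits (23.3%, exact 95% interval 11.8 to 38.6%), 9.30% of their flanks 400 to 500 bp away, 12.3% of windows across the interval and 7.77% of all IDR summits. TTTATTG, the other form, was in 18.6%, 6.98%, 9.64% and 12.2%. Either form was in 17 summits (39.5%), against 20.6% of the windows and 19.2% of all IDR summits. The Caudal motif TTTATG, whose letters lie within TTTATGG, was in 51.2% of the summits and 41.9% of their flanks. It was in 32.5% of windows across the interval and 28.4% of all IDR summits. For the Hox core TAATTA these shares were 16.3%, 23.3%, 14.4% and 19.5%.

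Of the letters of Polycomb-linked factors, GCCAT was common across the complex, while GAGAG across it was near its share at all IDR summits. GCCAT was in 25 of 43 summits (58.1%, 42.1 to 73.0%), 30.2% of flanks and 45.2% of windows across the interval, against 29.2% of all IDR summits, so the interval's own sequence was above that list. GAGAG was in 15 (34.9%), 18.6% of flanks, 22.4% of windows and 20.1% of all IDR summits. In the flanks of all IDR summits GCCAT was in 33.5% and GAGAG in 25.1%. Within 250 bp, 17 summits had at least 3 GCCAT (39.5%), where 8.42% of all IDR summits did. The summit with the most, 7, was 16846130 in lncRNA:iab8 and MSAmiP, followed by 16764229 in lncRNA:bxd, 16939850 and 16962513 in Abd-B, with 6 each. At least 3 GAGAG and 1 GCCAT together were at 7 summits (16.3%), against 7.97%, with overlapping matches counted separately. Within 250 bp, neither flanks nor windows across the interval were counted. Within 100 bp, all IDR summits were poorer in G and C, 34.9% against 43.4%, and its part in these shares was not tested.

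Motifs of other boundary and promoter factors were each at 3 or fewer of the 43 summits. CCAATAAG (Elba) was at 2 summits, 16858361 and 16939850 (4.65%, against 0.735% of all IDR summits), and CCAATTGG (Insensitive) was at 16962513 (2.33% against 0.556%). GGTCACAC (M1BP) was at 16944708 (2.33% against 2.64%), CAGGTA (Zelda) at 3 summits (6.98% against 3.70%), and TATCGATA (DREF) at none, against 4.09%. With such counts the shares are imprecise.

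**Figure D5:**
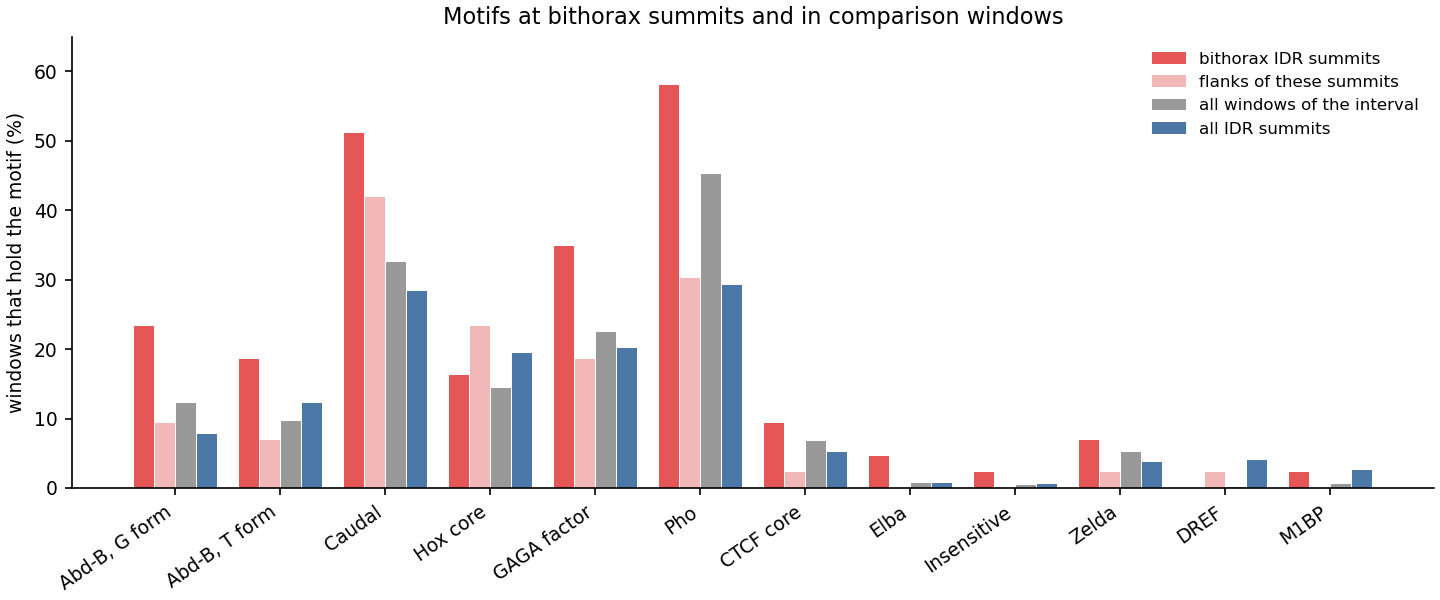
Share of windows (%) that hold each motif on either strand at the 43 bithorax IDR summits, in their flanks, in 1619 windows across the interval and at all 5033 IDR summits. Pho (58.1%) and the G form of the Abd-B motif (23.3%) are higher at bithorax summits than in the other 3 sets.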

How the data were processed

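ChIP-seq peak lists of 2 biological replicates, a pooled list and the list passing the authors' optimal IDR threshold were used, on dm6 per the labels. The authors' signal value per peak is a score of unstated scale. With the aligner and peak caller not given in the sources used here, no step before the lists could be checked. The deposited −log10 q-value gave the threshold of 0.05. Depth and control values were not used, since the lists hold no counts, and intervals cover counting error of summits only. The 1 pooled and 1 replicate 2 peak outside the 6 main arms were left out.

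Peaks were ranked by signal. Summits (1-based) were assigned to genes of Ensembl release 115 (BDGP 6.54) and sequence came from RefSeq. A partner summit lay within 100 bp, a promoter summit within 1 kb of a TSS (500 bp for the feature class), and motifs within 100 bp. Named genes were the 6 members, mir-iab-4 and mir-iab-8, genes overlapping or flanking the interval, the other Hox genes, and the 5 genes of similar length nearest to Abd-B in summit count. The rule for the members uses no measured value, but the members, stretches and motifs were chosen with earlier results of these data known. No test was run, since there is 1 group. Alternatives were stricter or single-replicate lists, other windows and distances, and, added after seeing the data, close pairs counted once and motifs within 250 bp. The counting functions were tested on simulated data. The tools were matplotlib 3.10.9, scipy 1.17.1, numpy 2.4.6, pandas 2.3.3 and Python 3.11.15.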

Additional observations from a re-analysis of the deposited data

How the results depend on the processing

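No paired analysis was possible because there is 1 group. Of 80 alternative values, 54 stayed within 1.5 times the main count or within the interval of the main share, and 26 moved. With the 1000 strongest peaks the interval held 7 summits, with 3 between Ubx and abd-A, 1 between abd-A and Abd-B, 3 in Abd-B and 0 in Ubx, in abd-A and beyond Abd-B, and 1 member had a promoter summit. With only the IDR peaks above the median of their list the interval held 20, with 0 in Ubx, 3 between abd-A and Abd-B and 7 in Abd-B, and 1 member had a promoter summit. Pooled peaks at a q-value of 0.05 or less gave 2 in abd-A, 22 between abd-A and Abd-B and 2 beyond Abd-B. The density ratio to the main arms, 3.51, was 2.88 with the 1000 strongest and 3.76 with the pooled calls. Leaving out each replicate in turn gave 42 to 46 summits in the interval, 2 to 2 in Ubx, 9 to 10 between Ubx and abd-A, 1 to 3 in abd-A, 14 to 14 between abd-A and Abd-B, 12 to 18 in Abd-B and 1 to 2 beyond it, 3 to 4 members with a promoter summit and a ratio of 3.43 to 3.76. The abd-A count of 3 came without replicate 1 and the count of 2 beyond Abd-B without replicate 2. The count of 4 members with a promoter summit also came without replicate 1, where abd-A was added by the summit at 16829223. The share with partners in both replicates was 76.7% within 50 bp, 100% within 250 bp and 72.1% among the 5033 strongest peaks. Motifs within 200 bp gave 39.5% for TTTATGG, 67.4% for TTTATG, 58.1% for GAGAG and 79.1% for GCCAT, and within 50 bp TTTATG gave 34.9%. These windows are longer or shorter by construction. With close pairs counted once, an alternative chosen after seeing the data, the interval held 37 summits. The unknown depth limits what a missing summit means.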

Other observations

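Among the protein-coding genes within the interval that are not members, Glut3, CG31275, VhaM9.7-d, Actn3 and AhcyL2 held no IDR summit in their bodies. The 1 summit beyond Abd-B, 16978101, was 306 bp upstream of Actn3, an actinin gene, with 285 pooled (rank 2202), 94.6 in replicate 1 and 195 in replicate 2. On the Ubx side the flanking gene modSP held 0 and on the Abd-B side CG18622 held 1. The antisense transcript lncRNA:iab4, which runs opposite to lncRNA:iab8 and carries mir-iab-4, had the summit 16850850 at 612 bp downstream of a TSS, with 193 pooled, 75.9 in replicate 1 and 116 in replicate 2, while lncRNA:CR43617, lncRNA:CR44945, lncRNA:CR45750, lncRNA:TS16 and lncRNA:CR46267 held no IDR summit.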
